A study of Mus musculus with 6 samples.

Results

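The muscle microRNAs miR-206, miR-133a and miR-133b were followed in cultured mouse vascular smooth muscle cells (VSMCs) with and without TNF-α. They are 3 of the 1078 mouse microRNA (miRNA) reporters read on each array and were picked by exact reporter name as miRNAs of striated muscle with reported roles in VSMC phenotype. The rule uses no measured value, although it was written with earlier results of these data known. The study set 3 cultures given TNF-α, an inflammatory cytokine, against 3 untreated control cultures. All 6 were grown from VSMCs of the abdominal aorta, taken from 8-week-old C57BL/6 mice, and were passaged before harvest, and the labels state no transgene or deletion. The sources used here give neither dose nor duration of TNF-α.

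A miRNA is a short RNA that guides a silencing complex to matching sites in mRNAs, mainly through its seed, bases 2 to 8, and lowers the output of those mRNAs. The myomiRs are miRNAs enriched in striated muscle. miR-206 is a skeletal muscle miRNA that promotes myoblast differentiation and shares its seed with miR-1. miR-133a and miR-133b are close relatives of each other and are known in muscle for effects on proliferation and on serum response factor, and miR-133 has been linked to the contractile state of VSMCs.

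The mature sequences are shown because miR-206 and miR-133b lie next to each other in the genome but carry different seeds. Both are on the plus strand of mouse chromosome 1 in build GRCm38.p6, with miR-206 at chr1:20679055-20679076 and miR-133b at chr1:20682834-20682855. RefSeq gave sequences for 2 of the 3 members. Capitals mark the seed, and sequences run 5′ to 3′.
mmu-miR-206 (3p arm): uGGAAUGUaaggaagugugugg
mmu-miR-133b (3p arm): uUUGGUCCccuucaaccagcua
Each is 22 bases long. Among reporters on these arrays, miR-1a is known to share the seed of miR-206, and miR-133a that of miR-133b. In the RefSeq table miR-6349 and miR-6382, which no reporter here reads, also carried the seed of miR-206.

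The hairpins are shown because the arrays read both arms of each. Capitals mark the 5p arm, read by the reporters miR-206* and miR-133b*, and then the 3p arm.
Mir206, chr1:20679010-20679082: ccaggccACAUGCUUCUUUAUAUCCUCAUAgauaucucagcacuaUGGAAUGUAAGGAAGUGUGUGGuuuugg
Mir133b, chr1:20682769-20682887: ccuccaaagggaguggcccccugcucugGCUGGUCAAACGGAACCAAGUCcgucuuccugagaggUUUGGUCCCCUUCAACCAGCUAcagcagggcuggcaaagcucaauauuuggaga
The hairpins are 3686 bases apart, and the long noncoding gene Lincmd1, known in mouse myoblasts as a decoy for muscle miRNAs, spans both in the RefSeq gene table.

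Array values are scanner densities, 1 median per reporter and array on a linear scale, from which background had not been subtracted. The background peak, the commonest density among dim reporters, was 81.0 to 89.9 on the TNF-α arrays and 66.2 to 75.7 on the control arrays. The background limit, that peak plus 3 SD of the values below it, was 116 to 127 on the TNF-α arrays and 88.7 to 101 on the control arrays. From 241 to 255 reporters exceeded it on TNF-α arrays and 306 to 339 on control arrays. Background and group therefore separate the same arrays, and a technical difference between the array sets and an effect of TNF-α cannot be told apart. Of the smooth muscle markers, miR-145 was at 5664 to 6900 on TNF-α arrays and 4451 to 5632 on control arrays, and miR-143 at 3135 to 3481 on TNF-α arrays and 3247 to 3918 on control arrays, all far above the limit. Their minor arms miR-143* and miR-145* exceeded the limit on 0 TNF-α arrays and on 0 and 1 control arrays. On at least 3 arrays the limit was exceeded by 3 of 3 mesenchymal markers, 2 of 4 liver and gut, 1 of 2 endothelial, 0 of 6 blood cell and 0 of 2 neuronal markers. In such bulk RNA, fewer cells of a type and less RNA per cell cannot be told apart.

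miR-206 was lower in every TNF-α culture than in any control culture. Its density was 199, 198 and 168 on TNF-α arrays 1 to 3, against 277, 256 and 237 on control arrays 1 to 3. The groups did not overlap, although the background was higher on the TNF-α arrays, and all 6 densities exceeded their array's limit. The margin over the limit was 75.1, 71.1 and 52.4 on the TNF-α arrays, against 184, 155 and 149 on the control arrays. The density averaged 189 ± 17.7 with TNF-α and 257 ± 19.9 in controls (SD, n = 3 each), 26.5% lower. Of all 642 reporters bright enough to be tested, 6.7% had all TNF-α densities below all control densities.

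The file's own SD for miR-206 was 22.6, 23.4 and 26.8 on the TNF-α arrays, against 45.0, 26.5 and 36.4 on the control arrays, or 10.4% to 16.3% of the density over the 6 arrays. Whether that SD is over pixels or repeat spots is not stated in the labels or headers. The spread between cultures was smaller than this, at 9.41% with TNF-α and 7.75% in controls.

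**Figure D1:**
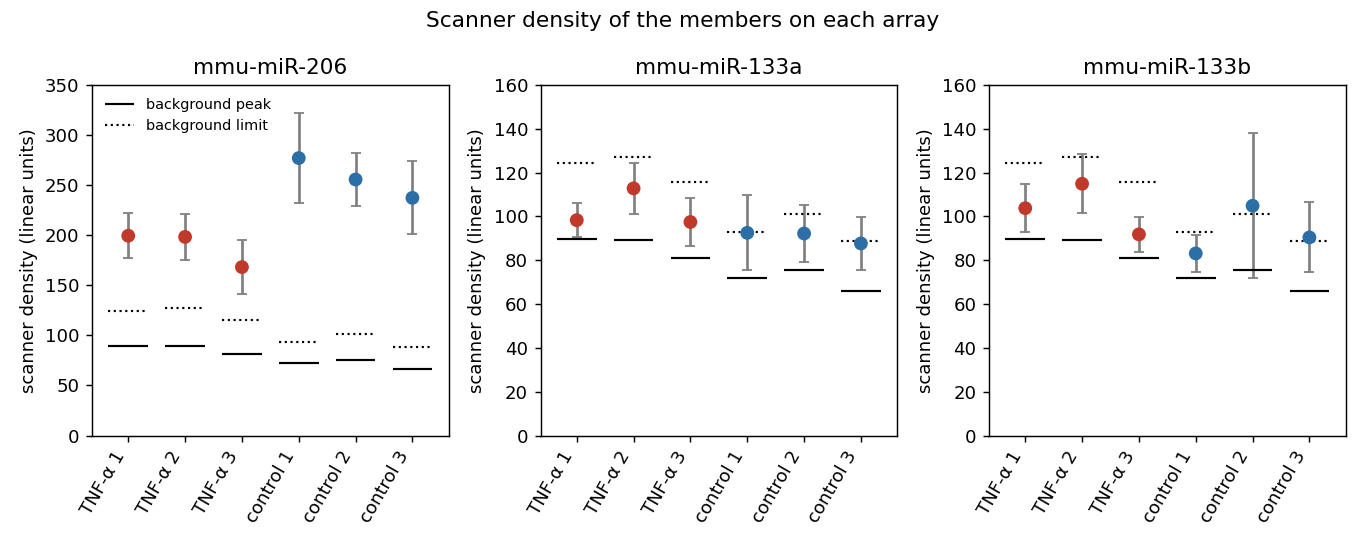
Scanner density (linear units) of miR-206, miR-133a and miR-133b on the 3 TNF-α arrays (red) and the 3 control arrays (blue), with the SD the files give for each reporter as grey bars. Solid black lines mark each array's background peak and dotted lines its background limit. miR-206 lay above the limit on all 6 arrays and was lower on the TNF-α arrays, while miR-133a never exceeded the limit and miR-133b did so on control arrays 2 and 3 only.

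The decrease of miR-206 was larger once the background was taken off. Above the background peak its density was 110, 109 and 87.1 on the TNF-α arrays, against 205, 180 and 171 on the control arrays. These averaged 102 ± 12.8 with TNF-α and 185 ± 17.5 in controls (SD, n = 3 each), 45.0% lower. In the authors' deposited value table, whose background steps the labels do not describe, it averaged 110 ± 6.33 with TNF-α and 186 ± 20.4 in controls (SD, n = 3 each), 40.9% lower. The groups were apart in each of these readings, and the size of the difference depended on the background taken off. How many of all tested reporters were apart in these readings was not counted. The peak was higher on the TNF-α arrays, so taking it off lowers every reporter there relative to controls. The larger decrease is therefore not particular to miR-206.

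For the test, densities were background-corrected with an offset of 50, put on the log2 scale and quantile normalised, which gives every array the same distribution. miR-206 was then 7.55, 7.497 and 7.46 on the TNF-α arrays, against 8.01, 7.93 and 8.05 on the control arrays. It fell by 0.49 on the log2 scale, or was 1.41-fold lower (SE 0.07, 95% interval -0.65 to -0.34, limma's moderated test over all reporters, Benjamini-Hochberg adjusted p = 0.00339). The offset understates the change of dim reporters such as miR-206.

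Of the 3 members, 1 passed an adjusted p of 0.05, beside 22.7% of all 642 tested reporters in either direction and 9.81% of them as lower. Against those shares, 1 call among 3 reporters sets nothing apart about the members as a group. The change of miR-206 was the 21st most negative of the 642, and 17th among the 293 reporters that exceeded the limit on at least 3 arrays. Among the 44 other tested reporters within 0.5 on the log2 scale of its control density, which spanned 186 to 363, 8 passed the test as lower and 6 as higher, their median change was -0.02, and 4 changed at least as far downward. The median change of all tested reporters was 0.01.

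Markers of other cell types also moved between the groups. Of 4 liver and gut markers 3 fell, miR-194 by 0.56, miR-215 by 0.40 and miR-122 by 0.26 on the log2 scale (limma adjusted p = 0.00819, 0.043 and 0.0225), and their summed density above the background peak was 35.7 to 58.3 on TNF-α arrays and 137 to 182 on control arrays. All 3 were below the limit on every TNF-α array, and miR-122 was below it on every control array too. Of 3 mesenchymal markers 1 rose, miR-199a-5p (0.42, limma adjusted p = 0.0102), and their sum was 16859 to 18669 with TNF-α and 16831 to 19355 in controls. Its brighter other arm, miR-199a-3p, went the other way at -0.25, and miR-214 was at -0.03. Neither was called (limma adjusted p = 0.0986 and 0.787). Of the smooth muscle markers 1 of 3 tested fell, the minor arm miR-145* (-0.51, limma adjusted p = 0.00496), and their sum was 8597 to 10193 with TNF-α and 7583 to 9423 in controls. miR-145* reached the filter on control arrays only, its high group. With no filter on any reporter its adjusted p was 0.00708 in limma over all 1078. The tested endothelial, blood cell and neuronal markers, 1 of each, did not pass. Sums of uncalled dim markers were apart in the same direction. That of the blood cell markers was -82.1 to -18.2 with TNF-α and 6.64 to 30.5 in controls. That of the neuronal markers was -24.0 to -13.6 with TNF-α and 8.23 to 17.5 in controls, while the endothelial sums overlapped. The peak taken off was higher on TNF-α arrays, so a gap between such sums is not particular to liver and gut markers. The calls of miR-194 and miR-145* held under all 19 and 17 alternatives in which they were tested, while those of miR-215, miR-122 and miR-199a-5p held under 7 of 17, 12 of 17 and 17 of 20. Without normalisation these last 3 were not called, at -0.23, -0.07 and 0.27. Nor were they with arrays scaled to the median of detected reporters, at -0.29, -0.12 and 0.21. miR-215 was not called with the smaller or larger offset (-0.81 and -0.21), nor miR-199a-5p in the deposited value table (0.24). miR-215 was also not called with the replicate number as a block (limma adjusted p = 0.0888) or without any 1 of control replicates 1, 2 and 3 (-0.46, -0.38 and -0.36) or TNF-α replicates 2 and 3 (-0.29 and -0.42), nor was miR-122 without control replicates 2 or 3 (-0.24 and -0.26) or TNF-α replicate 2 (-0.27). Whether cells of other types were present, and whether they had a part in the change of miR-206, was not tested.

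**Figure D2:**
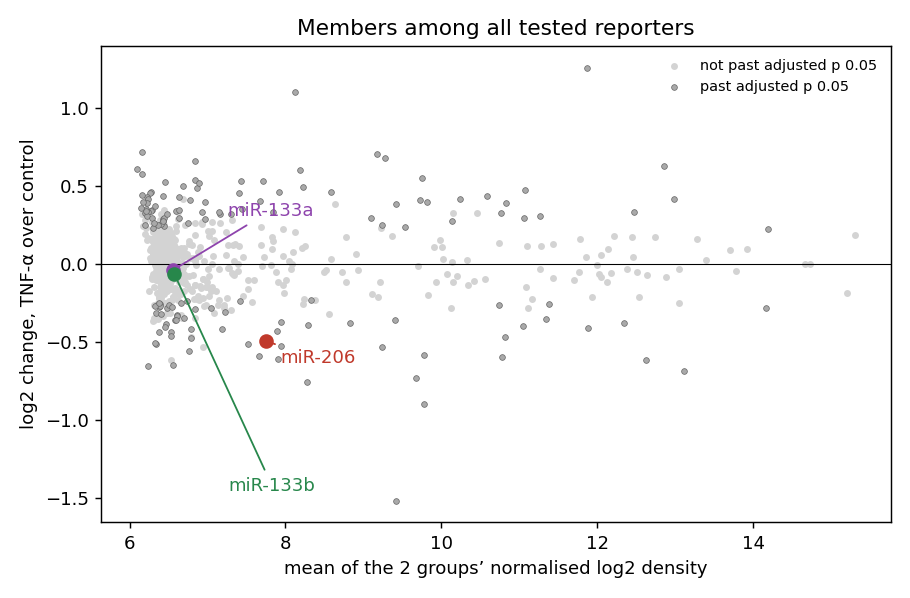
Log2 change (TNF-α over control) against the mean normalised log2 density for all 642 tested reporters, with those past an adjusted p of 0.05 outlined. miR-206, at -0.49, lies among the lower calls, while miR-133a and miR-133b lie near 0 among the many tested reporters near background, some of them dimmer.

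mmu-miR-133a did not pass the test and did not exceed the background limit in either group. Its density was 98.3, 113 and 97.5 on the TNF-α arrays, against 92.5, 92.2 and 87.7 on the control arrays. All 3 TNF-α densities were above the control range, but the background was higher there too. Above the background peak the values were 8.42, 23.5 and 16.4 with TNF-α against 20.4, 16.5 and 21.5 in controls, and these overlapped. The change was -0.04 on the log2 scale (SE 0.08, 95% interval -0.21 to 0.14, limma adjusted p = 0.76). No fold is given because all 6 values were below the limit, where a true change is compressed toward 0.

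miR-133b, the neighbour of miR-206 on chromosome 1, did not pass either. Its density was 104, 115 and 91.8 on the TNF-α arrays, against 83.1, 105 and 90.4 on the control arrays, and the groups overlapped. It exceeded the limit on control arrays 2 and 3, by 3.82 and 1.71, and on 0 TNF-α arrays. The file's SD was 33.1 on control array 2, larger than that margin. Above the background peak it was 13.9, 25.6 and 10.8 with TNF-α against 11.03, 29.1 and 24.3 in controls. The change was -0.06 on the log2 scale (SE 0.09, 95% interval -0.27 to 0.15, limma adjusted p = 0.674), and the background limit allows no fold. Both miR-133 members changed sign, with no call, when arrays were left unnormalised, to 0.14 for miR-133a and 0.12 for miR-133b.

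The changes of the members were then set against each other within each array. A shift of the whole array on the log2 scale cancels there, but a difference in background does not. The log2 value of miR-206 minus that of miR-133b, relative to its control mean, was -0.32, -0.54 and -0.43 on the TNF-α arrays, against 0.18, -0.18 and -0.01 on the control arrays. The groups did not overlap, and the difference of the changes was -0.43 (exact two-sided permutation test, p = 0.1, the smallest that 3 against 3 arrays can give). Against miR-133a the same quantity was -0.28, -0.53 and -0.56 with TNF-α and 0.01, -0.03 and 0.03 in controls, a difference of -0.46 (exact permutation p = 0.1). Again every TNF-α array lay below every control array. The normalised values of miR-206 alone were already apart and those of the miR-133 members changed little, so neither separation is a further result. How many other pairs of reporters were apart was not counted. Between miR-133a and miR-133b the changes differed by 0.03 (exact permutation p = 0.9), with an SD over arrays of 0.09 with TNF-α and 0.16 in controls. These were 3 comparisons of 1 family, and none can pass 0.05 with 6 arrays before or after adjustment. Because both miR-133 members lay near background, where a true change is compressed, the differences describe the reporters and not 2 fully measured miRNAs.

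The other arms of the members were at background. miR-206* was at 80.6, 78.0 and 68.9 on the TNF-α arrays, each below the background peak of its array, against 68.8, 76.0 and 69.4 on the control arrays. It was too dim to be tested. miR-133a* was at 88.9 to 99.2 with TNF-α and 72.4 to 80.8 in controls, and miR-133b* at 84.9 to 96.2 with TNF-α and 74.4 to 80.3 in controls. Neither exceeded the limit on any array, and their changes were 0.04 and 0.02 with no call (limma adjusted p = 0.787 and 0.891). miR-206 was thus the only reporter from these hairpins above the limit on all 6 arrays.

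Other striated muscle miRNAs gave little signal in these cultures. The list held 18 reporters: both arms of miR-206, miR-133a and miR-133b, the reporters of miR-1, miR-208a, miR-208b and miR-499, and miR-486*. Of these, 9 were tested, among them miR-486* and miR-208b*, which reached the filter on 3 TNF-α and 0 control arrays. The 9 gave 1 higher, 1 lower and a median change of -0.04, beside 83 higher, 63 lower and a median of 0.01 over all 642. Of the 18, 2 exceeded the limit on at least 3 arrays, miR-206 and miR-208a-5p, and 13 did so on 0 arrays. miR-1a, which shares the seed of miR-206 and is among the most abundant miRNAs of heart and skeletal muscle, was at 78.4, 80.2 and 78.1 with TNF-α and at 69.3, 68.5 and 65.9 in controls, below the limit on all 6 arrays. miR-208a-3p and miR-208b, from introns of cardiac myosin genes, and miR-499 from the myosin gene Myh7b were likewise below it on all 6, with densities of 73.5 to 92.6 with TNF-α and 60.8 to 73.8 in controls.

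miR-208a-5p exceeded the limit on 2 TNF-α and 3 control arrays. It was at 138, 136 and 113 with TNF-α and at 122, 127.8 and 121 in controls, which overlapped, and its change was -0.10 (SE 0.07, limma adjusted p = 0.389). miR-486*, from a hairpin in the muscle gene Ank1 that is also abundant in red blood cells, rose. It was at 140, 127 and 107 with TNF-α, above the limit on 2 arrays, against 83.0, 85.2 and 74.8 in controls, where it exceeded the limit on 0. Its normalised mean with TNF-α, which includes array 3 below the limit, was 1.17-fold the lowest value above the limit on the control arrays. Its estimated change was 0.43 (SE 0.08, limma adjusted p = 0.00819). Because it entered the test through its high group, the value with no filter on any reporter bears on it, an adjusted p of 0.0106 in limma over all 1078.

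**Figure D3:**
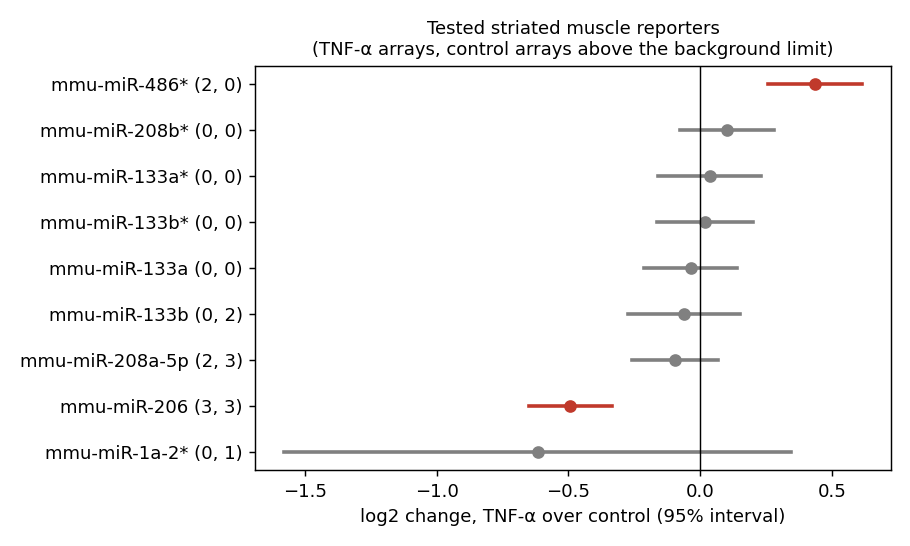
Log2 change (TNF-α over control, points) and 95% interval (lines) of the 9 tested striated muscle reporters, with calls past an adjusted p of 0.05 in red. Numbers in brackets count the TNF-α arrays and then the control arrays above the background limit. miR-206 fell and miR-486*, which reached the filter on TNF-α arrays only, rose; the intervals of the remaining 7 include 0.

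Summed over the 15 list reporters that are not members, density above the background peak was 34.0 to 58.2 on TNF-α arrays and 46.8 to 279 on control arrays. The top value is control array 3, where the reporter miR-1a-2* stood apart. It was at 237 there, against 89.5, 79.0 and 82.7 on the TNF-α arrays and 73.7 and 74.4 on control arrays 1 and 2. Without that reporter the sums were 32.3 to 58.6 with TNF-α and 45.9 to 109 in controls. Its estimated change of -0.62 (SE 0.42, limma adjusted p = 0.34) was -0.02 without control array 3. The values of miR-206 do not rest on that array: its change was -0.47 without it.

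The pattern of miR-206 over the 6 arrays was most like those of miR-713, miR-3110* and miR-322*. Likeness was the root mean square difference between centred normalised log2 values, over 292 reporters above the limit on at least 3 arrays. It was 0.02, 0.04 and 0.08 for these 3, where miR-206 itself varied by 0.25 about its mean. Chosen for this likeness, they had changes of -0.51, -0.43 and -0.47 on the log2 scale, which are a description and no support for miR-206. miR-713 was at 162 ± 17.2 with TNF-α and 220 ± 9.87 in controls (SD, n = 3 each). miR-133a varied by only 0.07 about its mean and was closest to miR-15a, miR-292-5p and miR-191, at 0.04 each, and miR-133b varied by 0.10 and was closest to miR-23a*, miR-132 and miR-125a-3p, at 0.05, 0.06 and 0.07. Between the members it was 0.25 for miR-206 and either miR-133 member and 0.11 for miR-133a and miR-133b.

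The call of miR-206 held under all 20 alternative settings. Its change ran from -0.62 in the authors' deposited value table to -0.36 with the larger offset, and adjusted p from 0.000781 to 0.0214 in limma. With each array left out in turn it was -0.53 to -0.46. miR-133a and miR-133b were called under 0 of the 18 and 17 settings in which they were tested, and their unadjusted p in the limma fit as reported was 0.648 and 0.521.

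**Figure D4:**
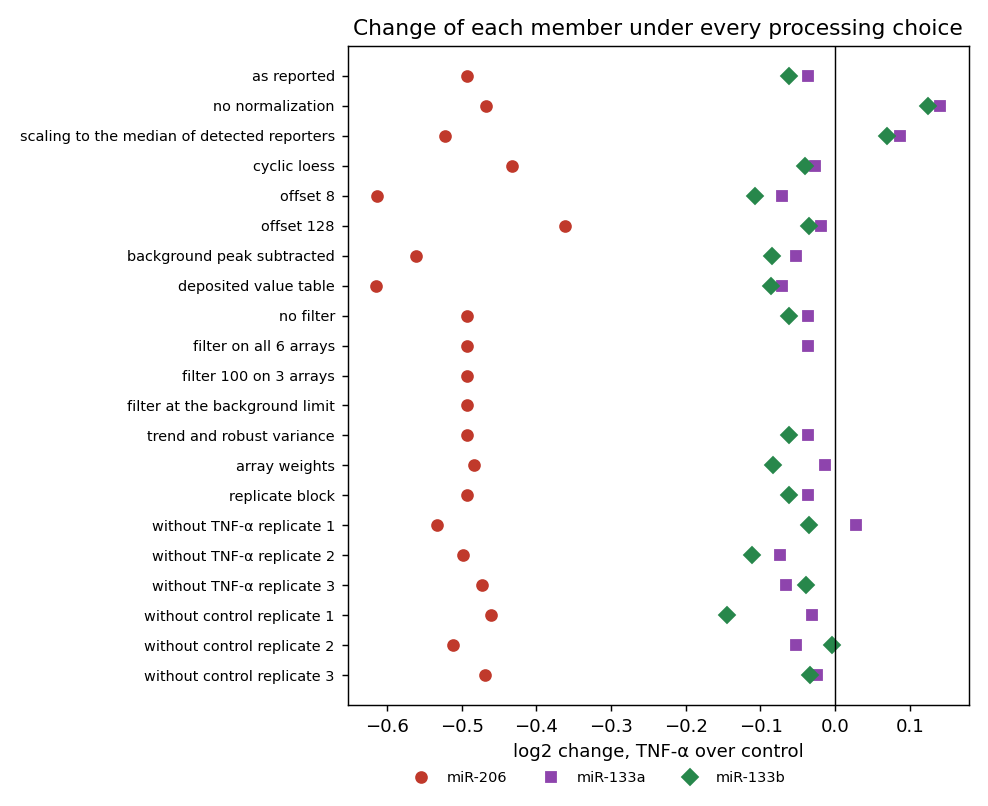
Log2 change (TNF-α over control) of miR-206 (circles), miR-133a (squares) and miR-133b (diamonds) as reported and under each alternative setting; a missing symbol means that the reporter did not reach that filter. miR-206 stays between -0.62 and -0.36, while both miR-133 members stay between -0.14 and 0.14.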

How the data were processed

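Total RNA of 3 TNF-α and 3 control VSMC cultures was tailed, tagged and stained with Cy5, giving 1-colour arrays, per the labels' protocols. The authors deposited linear intensities, which the file headers call densities, and a value table of processed intensities whose scaling they do not describe. Scanner, software and slides are not named in the labels or headers. Densities were corrected with normexp (offset 50), put on the log2 scale and quantile normalised in limma 3.58.1 (R 4.3.3). Testing needed a normexp-corrected density of 32, offset not counted, on 3 or more arrays. Group was the only term of the model, the Benjamini-Hochberg method ran over all 642 reporters so chosen, and a call needed an adjusted p under 0.05. Every log2 change is TNF-α minus control. The tested set was kept the same under the alternatives other than those of the filter. The background peak was the mode of densities under 250. Differences between members used exact permutation over arrays. The procedure was tested on simulated data, with changes placed only in reporters well above background. That test does not show how well changes are recovered in reporters as dim as miR-133a and miR-133b. Named by rule were the members, the striated muscle list, reporters sharing a member's seed, the 3 nearest patterns per member and smooth muscle markers. The members, lists, tests and background limit were chosen with earlier results of these data known. Cultures were grown separately per the labels, and p-values therefore reflect the spread from culture to culture. In limma's moderated test part of that spread is borrowed from all tested reporters, not taken from the named reporter alone. The labels number both later TNF-α cultures as the third, so replicates were numbered in accession order. The number of arrays limits the precision.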

Additional observations from a re-analysis of the deposited data

How the results depend on the processing

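The change of miR-206 kept its direction and its call under all 20 alternatives, and the count of called members was 1 under each. The sign of the uncalled miR-133 members depended on the scaling: without normalisation miR-133a was 0.14 and miR-133b 0.12, and with each array scaled to the median of its detected reporters they were 0.0865 and 0.0699. Without normalisation the median of all tested reporters was 0.14, so relative to it miR-206, at -0.47, was lower still and the miR-133 members were close to it. With an array left out in turn, miR-133a ran from -0.0740 to 0.0284, the highest being without TNF-α replicate 1, and miR-133b from -0.14 to -0.0040. The difference between the changes of miR-133a and miR-133b ran from -0.0483 to 0.11 in those fits, at -0.0265 without TNF-α replicate 3 and -0.0483 without control replicate 2. The striated muscle list had 1 call in place of 2 with the filter on all 6 arrays, at a density of 100 or at the background limit, because miR-486* was then not tested. With no filter it had 3 calls of 18, the added one being miR-1b-5p (-0.33, limma adjusted p = 0.0291), below the background limit on all 6 arrays and named after its value was seen. miR-208a-5p was 0.0301 and miR-208b*, which reached the filter on TNF-α arrays only and exceeded the background limit on 0 arrays, was 0.30 without normalisation, past the threshold. With an array left out, miR-133a* ran from -0.0220 (without control replicate 1) to 0.10, and miR-133b* from -0.0240 (without control replicate 2) to 0.0858, and it was -0.0067 without control replicate 1. miR-322* was -0.39 without control replicate 1, no longer past the threshold. Over all reporters 146 passed as reported, with 83 higher and 63 lower. There were 163 higher and 41 lower without normalisation, 126 and 60 with median scaling, and 79 and 113 in the deposited value table over the same 642 reporters. With the stricter filter 77 passed, and with an array left out 62 to 112 did. With the replicate number as a block miR-206 was -0.49 (limma adjusted p = 0.0214), miR-133a -0.04 and miR-133b -0.06, and the replicate block left 103 calls over all reporters. Deviations of same-numbered arrays correlated at 0.04, 0.02 and 0.15, so the numbers were not taken to pair the cultures. The cause of these shifts was not tested. Signal over background, not the number of arrays alone, limits what can be said of miR-133a and miR-133b.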

Other observations

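The density of 237 for miR-1a-2* on control array 3 was 2.64 times the next highest of its 6 values, with an SD of 23.0 in the file. Of all 1078 reporters, 6 had 1 array at more than 2 times the next highest value. The others were miR-432 (220 against 66.0) and miR-147 (187 against 90.3) on TNF-α array 1, miR-1957 (293 against 88.6) and miR-92a-2* (322 against 99.3) on TNF-α array 3, and miR-1964-3p (282 against 120) on control array 3. These 5 were chosen after their values were seen. miR-206, miR-133a and miR-133b were not among them.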
